A study of Macaca mulatta with 24 samples.

Results

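Cyclic AMP (cAMP) is the second messenger through which hormone receptors control fat breakdown. The genes described here are a set of 43 that make it, destroy it or respond to it: 9 adenylyl cyclases, 6 G protein subunits, 15 phosphodiesterases, 8 subunits or inhibitors of protein kinase A (PKA), the anchor AKAP12, the transcription factors CREB1 and CREM, and the exchange factors RAPGEF3 and RAPGEF4. They were chosen by symbol for their place in the pathway, with earlier results of these data known, and matched to 39 of the 32386 genes in the count table. GNAI2, PDE8B, PRKAR1B and PKIA had no match and were not analysed here. Of the 39, ADCY8 had too few counts to be tested, which left 38.

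Omental white adipose tissue (WAT), the fat of the abdominal apron, was biopsied from 24 female rhesus macaques, 6 in each of 4 groups, with 1 RNA-seq library per animal. Controls (*C*) carried cholesterol implants and ate monkey chow, and *T* animals carried testosterone implants and ate chow. *WSD* animals carried cholesterol implants and ate a high-fat Western-style diet, and *T* + *WSD* animals had the testosterone implants and that diet. Treatment lasted 3 years in all groups. The labels give an age of 4 years for every animal, while the methods of the study give a higher one. The methods also say that the 24 animals were picked from larger groups as representative of the group findings on fat mass and insulin, so the spread between them may be narrower than in the groups they came from. Animals are the replicates.

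Receptors coupled to the stimulatory G protein Gs switch on adenylyl cyclases at the cell membrane, and receptors coupled to Gi hold them back. The cAMP they make binds the regulatory subunits of PKA and frees its catalytic subunits. In fat cells PKA then phosphorylates perilipin and hormone-sensitive lipase, which starts the breakdown of stored triglyceride. Phosphodiesterases (PDEs) end the signal by cutting cAMP, and insulin restrains lipolysis largely by activating PDE3B. Epac proteins, encoded by RAPGEF3 and RAPGEF4, bind cAMP independently of PKA and load the small GTPase Rap with GTP.

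Library totals ran from 6899185 to 28270776 counts. Levels are given as CPM (counts scaled to a total of 1000000 per library, with library sizes adjusted by TMM). They are not corrected for gene length, so they compare animals for 1 gene and not 1 gene with another. A gene was called when its adjusted p in edgeR's quasi-likelihood test was under 0.05 and its fold change was over 1.5, and the interaction of testosterone and diet was called at an adjusted p under 0.1. In 8 libraries, 2 in each group, 1 gene took 9.92% to 54.7% of the counts. In the other 16 libraries no gene took more than 3.46%. The 8 libraries are called the high-share libraries below, and a result that rests on them is also given without them. They were also the shallower ones, at 6899185 to 17538167 counts against 20177588 to 28270776 in the other 16.

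The combined treatment was the only one of the 3 treatments under which any member was called against *C* by this test. Under *T* alone and under *WSD* alone the test called 0.00% of all tested genes, so this is not particular to the members. In *T* + *WSD* animals 10 members were higher and 1 was lower than in *C*, which is 11 of 38 members, where 4.72% of all 15207 tested genes were called higher and 5.29% lower. The higher genes were the cyclases ADCY1 and ADCY4, the G protein gamma subunits GNG2 and GNG11, the phosphodiesterases PDE1B, PDE2A and PDE3A, AKAP12, RAPGEF3 and RAPGEF4. The lower gene was PRKAR1A, the type I alpha regulatory subunit of PKA. The median log2 fold change over the 38 members was 0.32, against -0.04 over all tested genes, and 28 members had a positive value. The groups did not overlap for 6 members, 5 higher and 1 lower, where 3.49% of tested genes did not overlap in the higher direction and 4.12% in the lower. Since the members were chosen with earlier results of these data known, these counts and the median are not independent evidence about the pathway. PDE2A was also matched only through the study's supplementary tables, which include its lists of differentially expressed genes in these samples. Its call is therefore not independent of the way it entered the set.

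**Figure D1:**
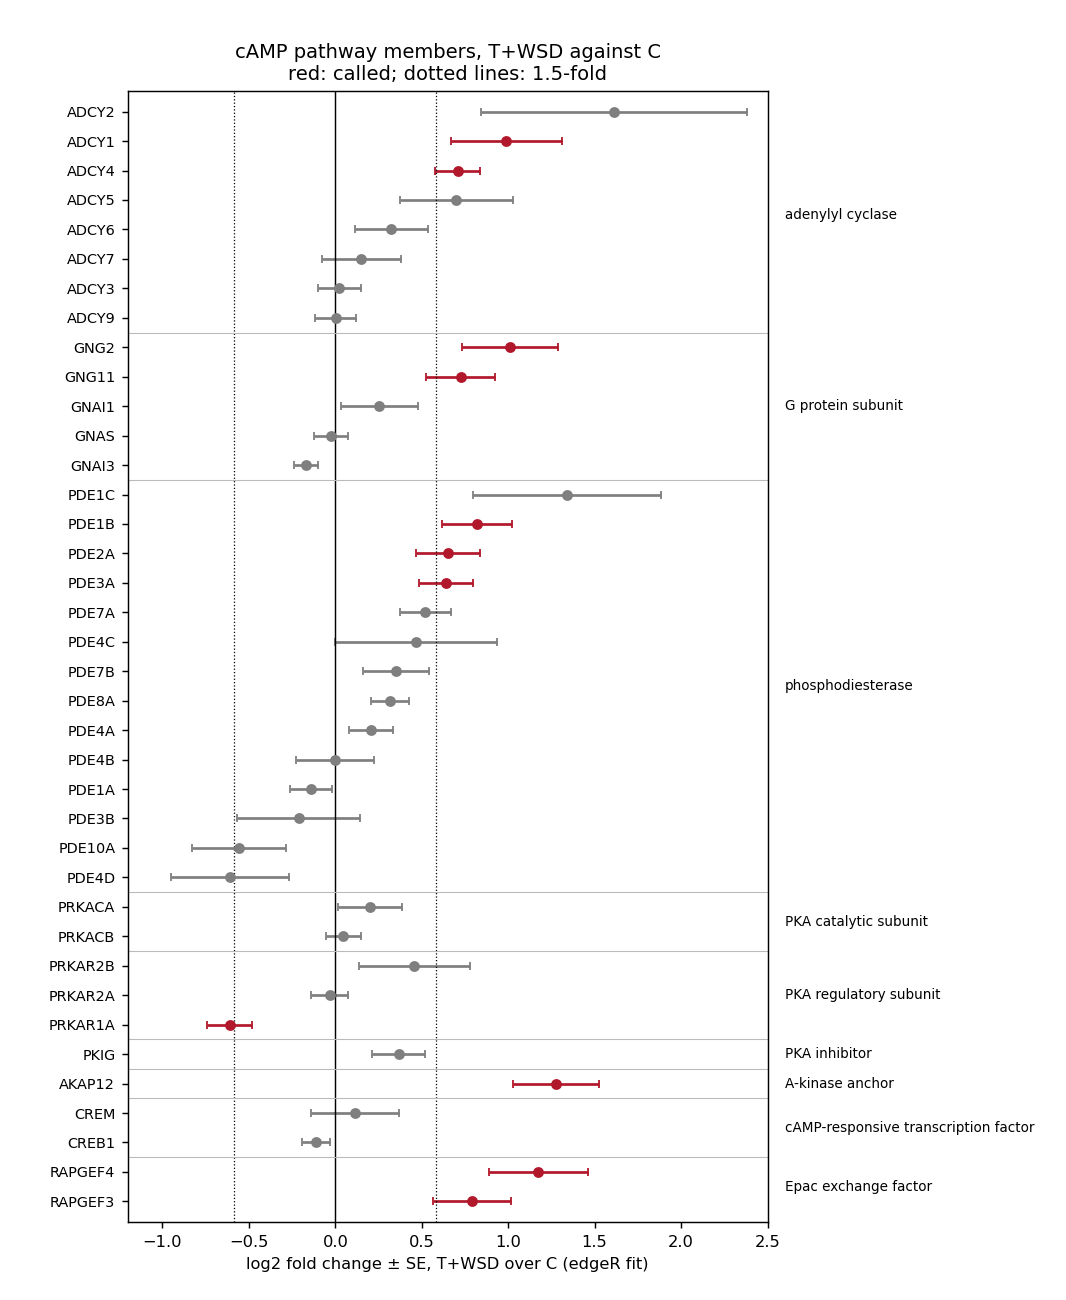
Log2 fold change of the 38 tested members in *T* + *WSD* against *C* (x axis; points are edgeR estimates, bars are 1 SE, 6 animals per group), ordered by role. The 11 red points are called genes, 10 to the right of 0 and PRKAR1A to the left, and the widest bars belong to ADCY2 and PDE1C, which were not called.

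Of the cyclases, ADCY4 separated the groups most cleanly. Its lowest, median and highest levels were 21.4, 25.7 and 31.2 CPM in *C*, 21.1, 27.95 and 31.5 CPM in *T* and 19.8, 27.0 and 33.3 CPM in *WSD*. In *T* + *WSD* they were 34.4, 41.7 and 49.8 CPM. All 6 *T* + *WSD* animals therefore lay above every animal of the other 3 groups, while the other groups overlapped one another. Its log2 fold change against *C* was 0.71 ± 0.13 (SE, adjusted p = 0.00294).

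ADCY1 encodes a cyclase that calcium and calmodulin stimulate. It was at 1.39, 3.00 and 5.27 CPM in *C* and at 3.16, 6.54 and 9.89 CPM in *T* + *WSD*, and 5 of the 6 *T* + *WSD* animals were above every control. The log2 fold change was 0.99 ± 0.32 (SE, adjusted p = 0.0365). In *T* animals it was at 2.17, 2.78 and 5.21 CPM and in *WSD* animals at 2.91, 4.35 and 6.15 CPM, both overlapping *C*. This was the least secure of the 11 calls, since leaving out any 1 of 8 animals ended it.

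All 8 tested cyclases had a positive value against *C*, but the other 6 were not called. ADCY2 had the largest estimate at 1.61 ± 0.77 (SE, adjusted p = 0.150), on levels under 2 CPM in every animal. ADCY5, a cyclase that Gi and calcium inhibit, was at 0.70 ± 0.33 (SE, adjusted p = 0.142). It reached 10.01, 66.0 and 113 CPM in *C* and 86.7, 101 and 131 CPM in *T* + *WSD*, so the groups overlapped and the controls were the more scattered. ADCY6, its close relative, was at 0.32 ± 0.21 (SE, adjusted p = 0.303). ADCY3, ADCY7 and ADCY9 had log2 fold changes of 0.02, 0.15 and 0.00083, each within 1 SE of 0. The share of all tested genes with a positive value was not computed, so the shared sign is not shown to be particular to the cyclases. ADCY8 gave 55 counts over all 24 libraries and was at 0 in 14 of them, so its level could not be compared.

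Of the G protein subunits, the alpha subunits that carry the receptor signal to the cyclase were not called. GNAS, which encodes Gs alpha, was at 567, 653 and 756 CPM in *C* and 603, 646 and 689 CPM in *T* + *WSD*, a log2 fold change of -0.03 ± 0.10 (SE, adjusted p = 0.892). Its locus also makes antisense RNA, and the strand setting of the counts is not given in the sources used here. The Gi alpha subunits GNAI1 and GNAI3 were at 0.25 ± 0.22 (SE, adjusted p = 0.462) and -0.17 ± 0.07 (SE, adjusted p = 0.0824).

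GNG2 and GNG11, the gamma subunits in the set, were higher, and neither overlapped *C*. GNG2 was at 18.6, 56.2 and 90.0 CPM in *C* and 95.7, 106 and 141 CPM in *T* + *WSD*, a log2 fold change of 1.01 ± 0.28 (SE, adjusted p = 0.0175). GNG11 was at 31.4, 61.1 and 71.0 CPM in *C* and 80.9, 90.7 and 110.1 CPM in *T* + *WSD*, a log2 fold change of 0.72 ± 0.20 (SE, adjusted p = 0.0168). Gamma subunits form the dimers with beta subunits that both Gs and Gi release. The *T* and *WSD* animals lay between, at medians of 81.1 and 83.3 CPM for GNG2 and 61.9 and 72.5 CPM for GNG11, with overlap on both sides. Outside the set, the gamma subunits GNG3, GNG5 and GNG12 were at 0.03, -0.26 and 0.03 and were not called. The beta subunits GNB1, GNB2, GNB3, GNB4 and GNB5 were not called either.

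**Figure D2:**
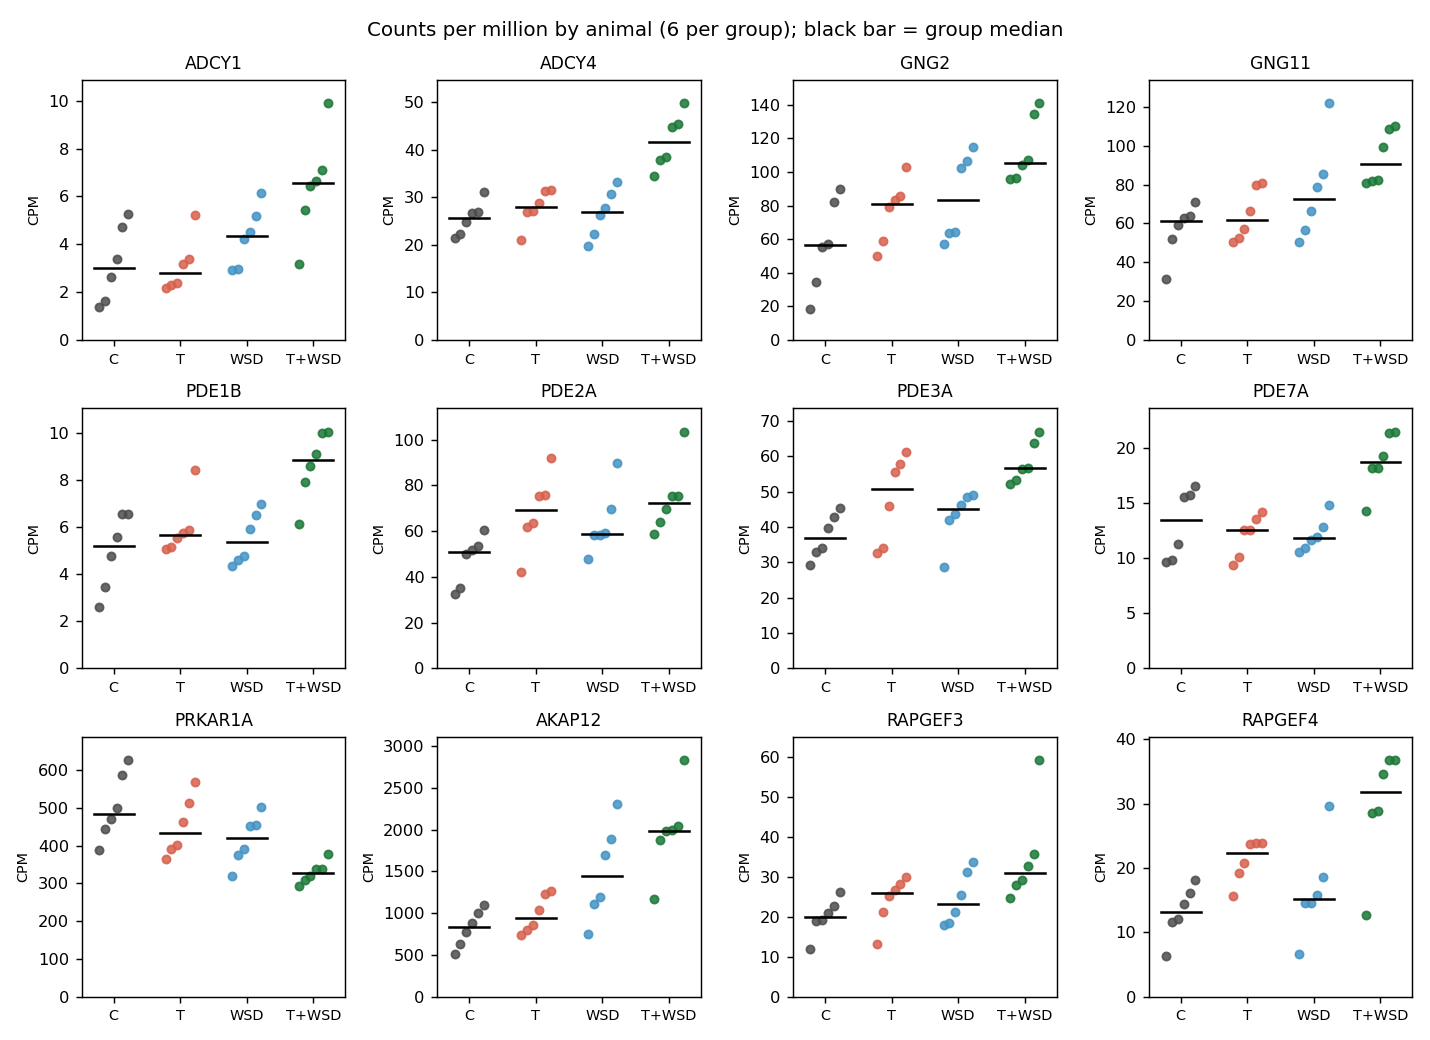
CPM of 12 members in each animal (points, 6 per group, sorted within a group; black bars are group medians; each y axis starts at 0). The *T* + *WSD* points clear every *C* point for ADCY4, GNG2, GNG11, PDE3A and AKAP12, and lie wholly below them for PRKAR1A, while RAPGEF4 has 1 *T* + *WSD* animal at 12.7 CPM inside the control range.

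Among the enzymes that destroy cAMP, 3 of 14 tested genes were called, all higher, where 4.72% of all tested genes were called higher and 5.29% lower. PDE3A, which cGMP inhibits and which is known from heart and vessel muscle, was at 29.2, 37.0 and 45.5 CPM in *C* and 52.3, 56.7 and 67.0 CPM in *T* + *WSD*, without overlap. Its log2 fold change was 0.64 ± 0.16 (SE, adjusted p = 0.0100). The *T* animals ranged from 32.7 to 61.3 CPM and the *WSD* animals from 28.7 to 49.1 CPM, so that *T* + *WSD* overlapped *T* and not *WSD*.

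PDE2A, which cGMP stimulates, was at 32.4, 50.8 and 60.5 CPM in *C* and 58.7, 72.5 and 103 CPM in *T* + *WSD*, and 5 of 6 animals exceeded every control. Its log2 fold change was 0.65 ± 0.19 (SE, adjusted p = 0.0206). PDE1B, activated by calcium and calmodulin, was at 2.59, 5.18 and 6.57 CPM in *C* and 6.10, 8.85 and 10.03 CPM in *T* + *WSD*, again with 5 of 6 above every control. The log2 fold change was 0.82 ± 0.20 (SE, adjusted p = 0.0111). Both genes thus kept 1 *T* + *WSD* animal within the control range.

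PDE3B, the form that insulin activates in fat cells, was not called. It was at 67.7, 133 and 294 CPM in controls and 136, 218 and 459.7 CPM in *T* animals, and at 70.5, 172 and 301 CPM in *WSD* animals and 111, 119.7 and 189 CPM in *T* + *WSD* animals. The groups overlapped throughout, the *T* animals reached highest and the *T* + *WSD* animals were the least scattered. The log2 fold change against *C* was -0.21 ± 0.36 (SE, adjusted p = 0.732). The within-animal log2 ratio of PDE3A to PDE3B counts had a median of -1.74 in controls, -2.70 under *T*, -2.27 under *WSD* and -1.18 under *T* + *WSD*. Its ranges were -2.86 to -1.04 in *C* and -1.56 to -0.78 in *T* + *WSD*, which overlapped.

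PDE7A, a form selective for cAMP, passed the adjusted p and not the fold threshold against *C*, at 0.52 ± 0.15 (SE, adjusted p = 0.0192). Its partner PDE7B was at 0.35 ± 0.19 (SE, adjusted p = 0.208), and PDE8A, which has very high affinity for cAMP, at 0.32 ± 0.11 (SE, adjusted p = 0.0511). The PDE4 enzymes, selective for cAMP and present in most cells, did not share a direction. PDE4A, PDE4B and PDE4C had log2 fold changes of 0.21, -0.0028 and 0.47, and PDE4D of -0.61 ± 0.34 (SE, adjusted p = 0.227). PDE1A was at -0.14 ± 0.12 (SE, adjusted p = 0.450) and PDE10A at -0.56 ± 0.27 (SE, adjusted p = 0.160).

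PDE1C had the second largest estimate of the set, 1.34 ± 0.55 (SE, adjusted p = 0.0905), on levels of 0.0562, 0.431 and 0.702 CPM in *C* and 0.430, 1.03 and 1.497 CPM in *T* + *WSD*, and was not called. The study's own pathway table attaches this symbol to another identifier, ENSMMUG00000047835, which the gene name table leaves without a symbol. That identifier was at 6.83 ± 3.01 CPM in *C* and 11.8 ± 2.04 CPM in *T* + *WSD*, as means ± SD of 6 animals. It was called, with a log2 fold change of 0.78 ± 0.24 (SE, adjusted p = 0.0279). Whether both identifiers belong to PDE1C was not tested.

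In the PKA holoenzyme, 1 of the 5 tested subunit genes was called, where 4.72% of all tested genes were called higher and 5.29% lower. A count of 1 among so few genes says little about the holoenzyme. PRKAR1A was at 389.8, 485 and 626 CPM in controls. It was at 364, 432 and 568 CPM in *T* animals, 319.6, 421 and 501 CPM in *WSD* animals and 293, 328 and 377 CPM in *T* + *WSD* animals. Every *T* + *WSD* animal was below every control, and the *T* and *WSD* animals overlapped both. The log2 fold change was -0.61 ± 0.13 (SE, adjusted p = 0.00560). It lies close to the fold threshold, and without C replicate 1, C replicate 3, T+WSD replicate 8 or T+WSD replicate 9 it missed that threshold at log2 fold changes of -0.54, -0.54, -0.57 and -0.58, with an adjusted p of at most 0.0195.

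The other PKA genes did not pass. PRKAR2B, the type II beta subunit that predominates in fat cells, was at 60.7, 231 and 314 CPM in *C* and 242, 291 and 398 CPM in *T* + *WSD*, with a log2 fold change of 0.46 ± 0.32 (SE, adjusted p = 0.344). PRKAR2A was at -0.03 ± 0.11 (SE, adjusted p = 0.877). The catalytic subunits PRKACA and PRKACB were at 0.20 ± 0.19 (SE, adjusted p = 0.489) and 0.05 ± 0.10 (SE, adjusted p = 0.807). PKIG, an inhibitor that binds free catalytic subunits, was at 0.37 ± 0.15 (SE, adjusted p = 0.102), with 5 of 6 *T* + *WSD* animals above every control.

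Regulatory and catalytic subunits can also be set against each other within an animal. The log2 ratio of PRKAR1A to PRKACB counts ran from 2.17 to 2.94 in controls, 2.12 to 2.67 under *T*, 1.72 to 2.55 under *WSD* and 1.67 to 2.0 under *T* + *WSD*. The *T* + *WSD* animals overlapped neither *C* nor *T*, and 1 *WSD* animal fell inside their range. PRKAR1A by itself also separated *T* + *WSD* from *C*, so this ratio is not a separate result. How often ratios of other genes fail to overlap was not computed. Against PRKACA the ratio ran from 2.64 to 4.58 in *C* and from 2.54 to 3.07 in *T* + *WSD*, which overlapped. These ratios compare unequal change between groups and do not give the amounts of the subunits.

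**Figure D3:**
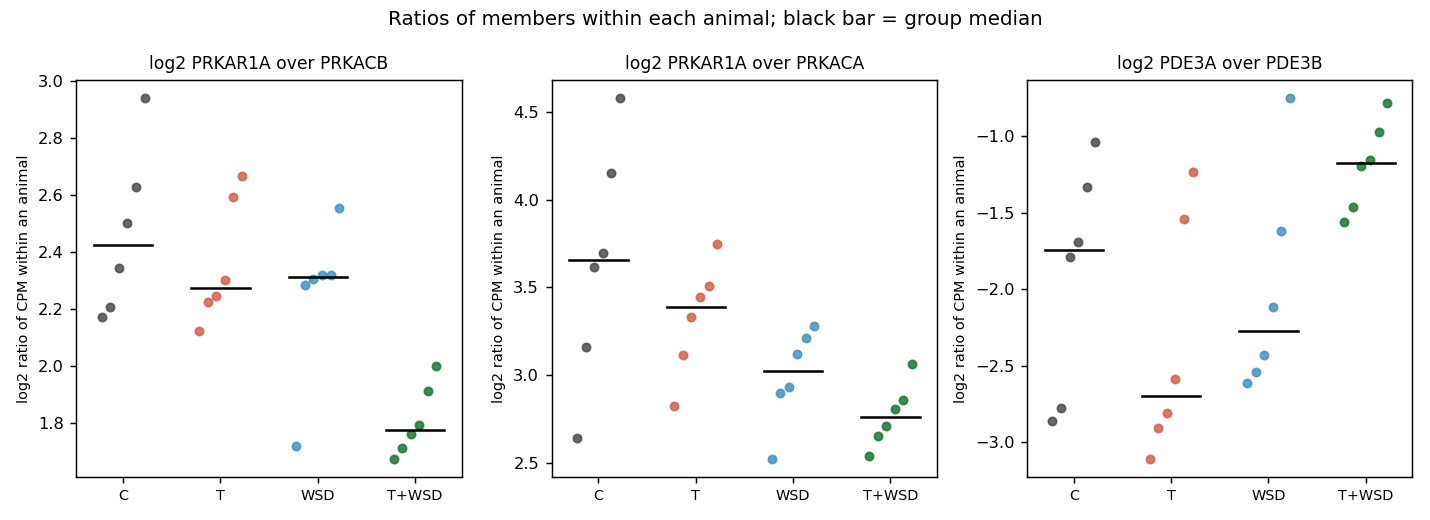
Within-animal log2 ratios of CPM for PRKAR1A over PRKACB, PRKAR1A over PRKACA and PDE3A over PDE3B (y axes differ and do not start at 0; points are animals, black bars are group medians). In the first panel the *T* + *WSD* animals, at 1.67 to 2.0, lie below every *C* and *T* animal, and in the other panels *T* + *WSD* overlaps *C*.

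The anchor AKAP12, a scaffold that holds PKA near receptors at the membrane, had the largest fold change of the called members. Its lowest, median and highest levels were 516, 833 and 1093 CPM in controls and 743, 946 and 1264 CPM in *T* animals. They were 746, 1448 and 2309 CPM in *WSD* animals and 1173, 1990.2 and 2830.2 CPM in *T* + *WSD* animals. All 6 *T* + *WSD* animals were above every control, and 5 of the 6 *WSD* animals were too. The log2 fold change against *C* was 1.28 ± 0.25 (SE, adjusted p = 0.00367).

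Both Epac genes were higher. RAPGEF4 (Epac2) was at 6.35, 13.2 and 18.2 CPM in *C* and 12.7, 31.7 and 36.7 CPM in *T* + *WSD*, a log2 fold change of 1.17 ± 0.29 (SE, adjusted p = 0.0100). RAPGEF3 (Epac1) was at 11.9, 20.003 and 26.3 CPM in *C* and 24.7, 30.9 and 59.1 CPM in *T* + *WSD*, a log2 fold change of 0.79 ± 0.23 (SE, adjusted p = 0.0207). In each, 5 of 6 *T* + *WSD* animals were above every control. The highest RAPGEF3 value, 59.1 CPM, came from T+WSD replicate 8, without which the log2 fold change was 0.61 (adjusted p = 0.0578). That library had the lowest total, 6899185 counts, with 54.7% of them in 1 gene, so animal and library cannot be told apart there. The transcription factors that PKA phosphorylates, CREB1 and CREM, were at -0.11 ± 0.08 (SE, adjusted p = 0.347) and 0.11 ± 0.25 (SE, adjusted p = 0.807) and were not called.

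Testosterone alone and diet alone were each compared with the same 6 controls as the combination. Under *T*, 0 of 38 members were called by edgeR and 0 by DESeq2 (0.00% of all tested genes by edgeR and 0.0279% by DESeq2), with 5 at an unadjusted p under 0.05, where 8.63% of all tested genes were. Under *WSD*, 0 were called by edgeR and 1, AKAP12, by DESeq2 (0.00% of all tested genes by edgeR and 0.950% by DESeq2), with 9 at an unadjusted p under 0.05, where 18.5% of all tested genes were. The median log2 fold change over members was 0.12 under *T* and 0.20 under *WSD*, against -0.02 over all tested genes in each.

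Side by side, the log2 fold changes of AKAP12 under *T*, *WSD* and *T* + *WSD* were 0.27, 0.87 and 1.28. Those of RAPGEF4 were 0.69, 0.33 and 1.17, and those of PRKAR1A -0.16, -0.27 and -0.61. ADCY4 stood at 0.12 and 0.07 under the single treatments and PDE7A at -0.11 and -0.11. For these 2 genes the single-treatment values were thus within about 1 SE of 0 while the combined value was 0.71 and 0.52. PDE2A was at 0.54 under *T* (adjusted p = 0.523) and 0.44 under *WSD* (adjusted p = 0.220), nearer to its combined value of 0.65. Over all 38 tested members the value farthest from 0 was that of *T* + *WSD* for 24, of *WSD* for 10 and of *T* for 4. PDE3B was among these 4, at 0.76 under *T* and -0.21 under *T* + *WSD*. No such count was made over all tested genes, so it is not shown to be particular to the members.

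**Figure D4:**
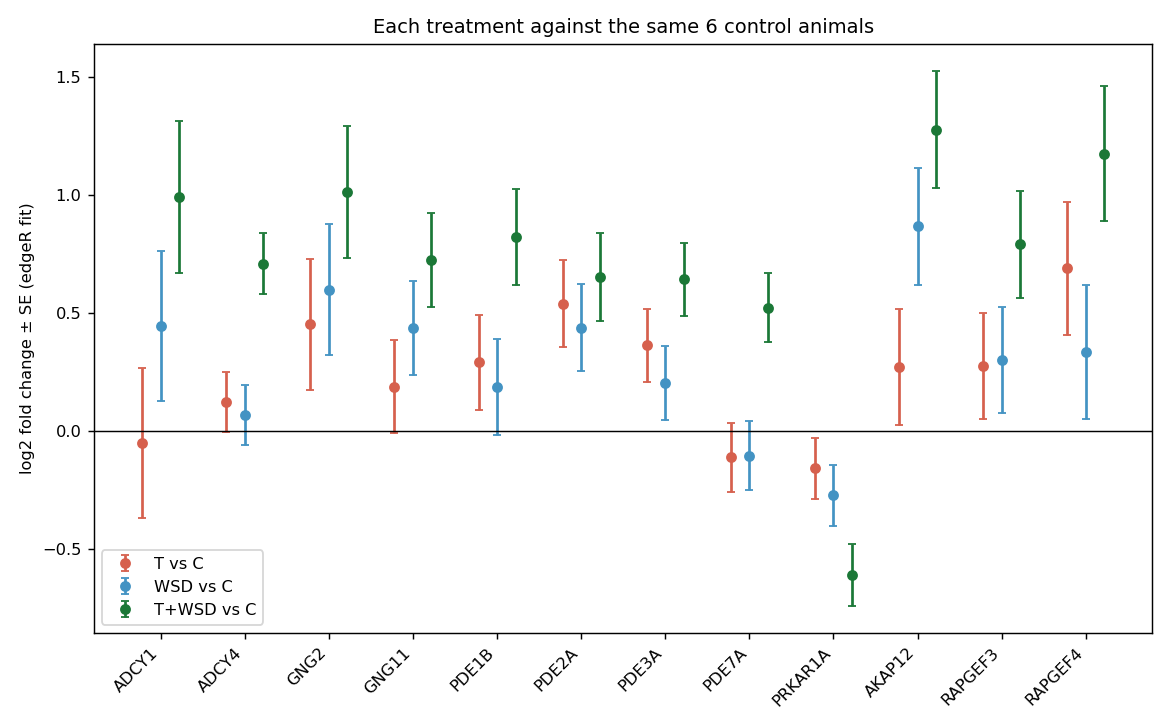
Log2 fold change against the same 6 *C* animals under *T*, *WSD* and *T* + *WSD* for 12 members (y axis; points are edgeR estimates and bars 1 SE, 6 animals per group). The 12 genes are those that passed the adjusted p in *T* + *WSD* against *C*, and for each of them the combined value lies farthest from 0, which the choice favours.

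Whether testosterone acted differently under the 2 diets was tested as the interaction. By edgeR 0 of 38 members were called at an adjusted p under 0.1, where 0.809% of all tested genes were, and 3 had an unadjusted p under 0.05, where 13.5% of all tested genes did. DESeq2 called 1, PDE7A, where it called 1.92% of all genes. The 3 were PDE7A at 0.74 ± 0.21 (SE, adjusted p = 0.127), ADCY4 at 0.52 ± 0.18 (SE, adjusted p = 0.206) and PDE3B at -1.25 ± 0.50 (SE, adjusted p = 0.276). The median interaction over members was -0.01 against -0.02 over all tested genes, with 19 members on each side of 0.

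The effect of testosterone in animals on the diet was given by *T* + *WSD* against *WSD*, which called 2 members, both higher, where 0.815% of all tested genes were called and 0.434% were called higher. ADCY4 had a log2 fold change of 0.64 ± 0.13 (SE, adjusted p = 0.0227). PDE7A was at 10.6, 11.8 and 14.8 CPM in *WSD* and 14.3, 18.8 and 21.5 CPM in *T* + *WSD*, a log2 fold change of 0.63 ± 0.15 (SE, adjusted p = 0.0370). In *C* and *T* it was at 9.66, 13.4 and 16.6 CPM and 9.43, 12.6 and 14.2 CPM, so 5 of the 6 *T* + *WSD* animals were above every *WSD* animal and all 6 above every *T* animal. Both calls were fragile, with ADCY4 lost when any 1 of 5 animals was left out and PDE7A when any 1 of 8 was.

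The effect of diet in testosterone-treated animals was given by *T* + *WSD* against *T*, which also called 2 members, both higher, where 3.77% of all tested genes were called and 2.34% were called higher. AKAP12 had a log2 fold change of 1.01 ± 0.25 (SE, adjusted p = 0.0235) and PDE7A of 0.63 ± 0.15 (SE, adjusted p = 0.0183). ADCY4 at 0.58 ± 0.13 (SE, adjusted p = 0.0150) and PRKAR1A at -0.45 ± 0.13 (SE, adjusted p = 0.0427) passed the adjusted p and not the fold threshold. ADCY1 was at 1.04 ± 0.32 (SE, adjusted p = 0.0521). Among those not called, PDE3B was at -0.97 ± 0.36 (SE, adjusted p = 0.0947), with 4 of 6 *T* + *WSD* animals below every *T* animal.

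Over the 38 tested members, 20 had their highest group mean in *T* + *WSD* animals, 9 in *WSD* animals, 5 in controls and 4 in *T* animals. The lowest mean was in *C* for 19. The spread between animals also differed by group, with a median coefficient of variation over the members of 24.2% in controls, 20.2% under *T*, 25.0% under *WSD* and 15.7% under *T* + *WSD*. These are descriptions and were not tested. They were not computed over all tested genes, so they are not shown to be particular to the members.

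Other genes of the pathway were counted from 4 lists. Of 40 tested genes of the wider machinery (further G protein subunits, PDEs, anchors, CREB partners, Popeye proteins and Rap), 6 were called in *T* + *WSD* against *C*, 4 higher and 2 lower, where 4.72% of all tested genes were called higher and 5.29% lower, and the median log2 fold change was 0.03. PDE4DIP, an anchor for PDE4D, had a log2 fold change of 0.76 ± 0.14 (SE, adjusted p = 0.00294) and did not overlap *C*, at 32.3, 36.5 and 53.4 CPM in *C* and 54.2, 69.9 and 74.3 CPM in *T* + *WSD*. CRTC3, a coactivator of CREB, was at 0.70 ± 0.17 (SE, adjusted p = 0.0103). ATF1, a relative of CREB1, was lower at -0.70 ± 0.15 (SE, adjusted p = 0.00600), from 30.4 to 55.8 CPM in *C* to a range of 22.1 to 27.4 CPM in *T* + *WSD*. PDE4DIP and ATF1 were matched only through the study's supplementary tables, which include its lists of differentially expressed genes in these samples. The count of 6 is therefore not independent evidence of a change. Of the cAMP-binding Popeye genes, BVES was at 0.76 and POPDC3 at 1.35, while POPDC2 was lower at -1.52, and all 3 were called. No other anchor on the list was called, and AKAP11 passed the adjusted p at 0.53 ± 0.10 (SE, adjusted p = 0.00317) without the fold.

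Of 24 tested receptors coupled to Gs or Gi, 10 were called in *T* + *WSD* against *C*, 9 higher and 1 lower. Of all tested genes 4.72% were called higher and 5.29% lower. The median log2 fold change was 0.58 over these receptors and -0.04 over all tested genes. Some of these receptors come from a pathway table the study chose on these samples, so the count is not independent evidence of a direction. HCAR2, NPY1R and AVPR2 were also matched only through the study's supplementary tables. Among those coupled to Gs, the PACAP receptor ADCYAP1R1 was at 1.35 ± 0.39 (SE, adjusted p = 0.0207), the prostaglandin receptor PTGER2 at 1.30 ± 0.31 (SE, adjusted p = 0.00940), and VIPR2 was lower at -1.48 ± 0.33 (SE, adjusted p = 0.00681). PTH1R, AVPR2, LHCGR and GPER1 were higher at 0.95, 1.32, 1.92 and 0.80. Of the Gi-coupled receptors that restrain lipolysis, 3 were higher, with ADORA1 at 1.1 ± 0.37 (SE, adjusted p = 0.0456), HCAR2 at 1.03 ± 0.30 (SE, adjusted p = 0.0211) and NPY1R at 0.75 ± 0.24 (SE, adjusted p = 0.0371). HCAR2 was not particular to the combination, with means of 12.5 CPM in *C*, 32.6 CPM in *T*, 14.8 CPM in *WSD* and 25.4 CPM in *T* + *WSD*. The study reported it as higher in both *T* and *T* + *WSD*, while edgeR did not call it under *T* here. The Gi-coupled ADRA2A, ADRA2B, ADRA2C and PTGER3 were at 0.68, -0.54, 0.53 and -0.09 and were not called. ADRB1 and ADRB3, beta adrenergic receptors through which catecholamines start lipolysis, were at 1.19 ± 0.60 (SE, adjusted p = 0.171) and -0.38 ± 0.59 (SE, adjusted p = 0.712) and were not called.

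Downstream of PKA, 0 of 12 tested CREB target genes were called against *C* by edgeR, and 0 had an unadjusted p under 0.05, where 32.1% of all tested genes did. Their median log2 fold change was -0.30 under *T* + *WSD*, 0.60 under *WSD* and 0.39 under *T*. Against *WSD* and against *T*, all 12 had a negative value in *T* + *WSD*, with medians of -0.91 and -0.70 and 0 called by edgeR. An unadjusted p under 0.05 was reached against *WSD* by 4, all lower, where 12.1% of all tested genes were lower at that p, and against *T* by 0, where 25.9% of all tested genes passed it. In the interaction all 12 were negative, with a median of -1.11 and 0 called by edgeR, and 5 had an unadjusted p under 0.05, where 7.26% of all tested genes were negative at that p. Genes on 1 list can rise and fall together in the same animals, so these 12 are not independent readings. PKA activity was not measured, and the cause of the shared direction was not tested. The 3 tested targets of PKA in lipolysis were not called, with LIPE (hormone-sensitive lipase) at 0.74 ± 0.31 (SE, adjusted p = 0.0947), PLIN1 (perilipin) at 0.54 ± 0.30 (SE, adjusted p = 0.224) and ABHD5 at 0.01 ± 0.18 (SE, adjusted p = 0.985). In the other contrasts no gene on these 4 lists was called by edgeR.

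The cell type markers moved with the same contrast, in which 4.72% of all tested genes were called higher and 5.29% lower. In *T* + *WSD* against *C*, 9 of 10 mesothelial markers were lower and 7 of 11 endothelial markers higher, as were 3 of 8 smooth muscle and pericyte markers, 1 of 9 adipocyte markers and 1 of 7 fibroblast markers, while 0 of 7 macrophage, 5 T and NK cell, 4 B cell and 2 Schwann cell markers were called. The summed mesothelial markers ranged from 2963 to 40066 CPM in *C* and from 286 to 3285 CPM in *T* + *WSD*, and the endothelial ones from 1079 to 1811 CPM and from 2049 to 3161 CPM. The smooth muscle and pericyte sums were 697 to 1545 CPM in *C* and 1388 to 1878 CPM in *T* + *WSD*. The adipocyte sums were 2191 to 14131 CPM in *C* and 11174 to 20035 CPM in *T* + *WSD*, and no marker on any list was at 0 in a whole group. The endothelial PECAM1 was at 0.88 ± 0.16 (SE, adjusted p = 0.00294), the mesothelial MSLN at -2.99 ± 0.66 (SE, adjusted p = 0.00650) and the adipocyte gene ADIPOQ at 0.50 ± 0.32 (SE, adjusted p = 0.282). In whole tissue, fewer cells of a type and less RNA per cell cannot be told apart.

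**Figure D5:**
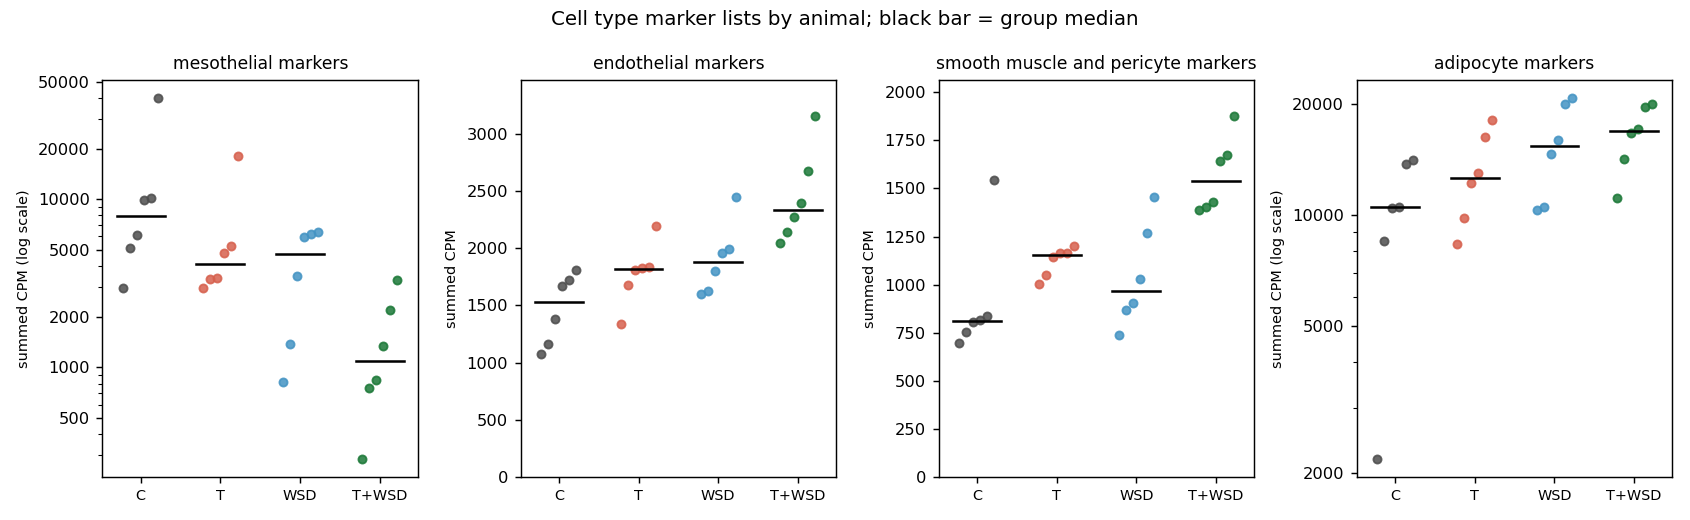
Summed CPM of 4 marker lists in each animal (points; black bars are group medians; mesothelial and adipocyte panels have log y axes, the others start at 0). The *T* + *WSD* animals lie above every *C* animal for endothelial markers (2049 to 3161 against 1079 to 1811 CPM) and mostly below them for mesothelial markers (286 to 3285 against 2963 to 40066 CPM).

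With the mean endothelial marker level as a covariate, 0 members were called in *T* + *WSD* against *C*, and 2 had an unadjusted p under 0.05. With the mean mesothelial level it was 0, and 3. The share of all tested genes at that unadjusted p was not computed for either fit. In both fits 0 of all 15207 genes were called as well. The log2 fold changes of the 10 higher members ran from 0.02 (PDE2A) to 0.67 (RAPGEF4) with the endothelial covariate and from -0.079 (RAPGEF3) to 0.67 (RAPGEF4) with the mesothelial one, and PRKAR1A was at -0.28 and -0.24. Since these markers themselves differ between *C* and *T* + *WSD*, the treatment and the marker level cannot be told apart here, and the part of either in the members' values was not tested.

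In the 16 libraries without the high-share ones, 4 animals per group, 0 members were called in *T* + *WSD* against *C* and 14 had an unadjusted p under 0.05, while 78 of 15448 tested genes were called. The share of all tested genes at that unadjusted p was not computed for this fit, so the 14 are not shown to be particular to the members. The log2 fold changes there lay between 0.41 (RAPGEF3) and 1.19 (AKAP12) for the 10 higher genes and at -0.52 for PRKAR1A, which is a description, since the 11 were called on animals that include these. The log2 ratio of group means differed most between the sets for ADCY1, whose means were 2.13 and 8.17 CPM in *C* and *T* + *WSD* among the high-share libraries and 3.70 and 5.58 CPM in the others. RAPGEF3 came next, with means of 16.4 and 47.4 CPM in *C* and *T* + *WSD* among the high-share libraries and of 21.7 and 28.7 CPM in the others. With the library type as a covariate over all 24 animals, 11 members were called, where 1499 of 15207 tested genes were.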

How the data were processed

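RNA-seq data of omental WAT from 24 female rhesus macaques were used, with groups taken from the sample labels. Per the labels and the study's methods, the authors made single-read libraries after depletion of ribosomal RNA, checked them with FastQC 0.11.5, trimmed with Trimmomatic 0.36 and aligned to rheMac8 with STAR 2.5.2b, and they deposited raw counts per Ensembl gene. The counting tool and strand setting are not given in the sources used here.

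The members, the other gene lists and the thresholds were chosen with earlier results of these data known. Symbols were matched by the gene name table (38 members) or the study's supplementary tables (1, PDE2A). The supplementary tables include the study's lists of differentially expressed genes in these same samples. A symbol missing from the gene name table could thus be matched only if the study had listed it. On the other gene lists, PDE4DIP, ATF1, HCAR2, NPY1R, AVPR2, KRT8 and CLDN5 were matched in that way. Counts were scaled by TMM, filtered with filterByExpr (minimum count 10, minimum total 15) and tested in 1 fit of 4 groups by the robust quasi-likelihood F-test of edgeR (version 4.0.16, with R 4.3.3, legacy fit), with Benjamini-Hochberg adjustment over 15207 genes and 6 contrasts. Tests are two-sided, SE is the log2 fold change over the root of F, and the code was tested on simulated data. Full statistics are given for members called in at least 1 contrast and others of their role. Alternatives were DESeq2 1.42.0, RLE and upper-quartile factors, no filter, only the groups compared, no fold threshold, the library type (over 5% of counts in 1 gene) as a covariate or left out, 2 marker means as covariates, and each animal left out. The 60 pairs of libraries within groups held no identical pair. Depth of 6899185 to 28270776 counts limits members under about 1 CPM. No gene lengths, sequences or bisulfite data were used here.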

Additional observations from a re-analysis of the deposited data

Results flagged for a closer look

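In each group of 6 animals, the highest or lowest value was set against the rest by Dixon's gap ratio at its 95% critical value. Of 156 member and group combinations, 9 had an animal past it, where chance alone flags about 1 in 20, or 7.8.

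In the *T* + *WSD* group RAPGEF3 stood at 59.1 CPM in replicate 8, with the next animal at 35.7 CPM, and RAPGEF4 at 12.7 CPM in replicate 11, with the next at 28.6 CPM. ADCY8 reached 1.08 CPM in replicate 12 of that group, with the next at 0.253 CPM, and 0.224 CPM in *T* replicate 13, the only *T* animal above 0. In *WSD* replicate 20, PDE4D was at 52.9 CPM, with the next animal at 16.2 CPM, and PRKAR2B at 693 CPM, with the next at 404 CPM. PDE3A was low in *WSD* replicate 24 at 28.7 CPM, with the next at 41.9 CPM. PDE1B was at 8.40 CPM in *T* replicate 15, with the next at 5.88 CPM, and PDE4C at 1.01 CPM in *C* replicate 5, with the next at 0.421 CPM. By edgeR no member's interaction of testosterone and diet passed its threshold, with the scaling used throughout, while PDE7A passed it by DESeq2.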

How the results depend on the processing

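The 11 members called in *T* + *WSD* against *C* became 0 without the high-share libraries, 0 with the mesothelial covariate and 0 with the endothelial covariate, and ranged from 7 to 11 when 1 animal was left out, with 7 without C replicate 1, C replicate 3 or T+WSD replicate 8. The mesothelial covariate turned the sign of RAPGEF3, to a log2 fold change of -0.079 (main value 0.79). ADCY1 lost its call in 8 of these 24 fits, PRKAR1A in 4, PDE2A in 3, RAPGEF3 in 2 and PDE3A in 1, while ADCY4, GNG2, GNG11, PDE1B, AKAP12 and RAPGEF4 kept theirs in all 24. ADCY1 was also not called when only the groups compared were fitted, where PDE4D was called lower at -0.61. DESeq2, RLE and upper-quartile factors gave 11, and no filter gave 10.

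For *T* + *WSD* against *WSD* the 2 calls became 3 with DESeq2, which added PDE1B (adjusted p = 0.0454), 1 without a filter, 1 with only the groups compared, and 0 without the high-share libraries or with either covariate. With 1 animal left out they ranged from 0 to 3, with 0 without WSD replicate 20, WSD replicate 24, T+WSD replicate 7 or T+WSD replicate 8, 1 without WSD replicate 23 or T+WSD replicates 9, 10, 11 or 12, and 3 without WSD replicate 22. For *T* + *WSD* against *T* the 2 calls became 4 with DESeq2, 4 with upper-quartile factors, 4 without the fold threshold, 7 with only the groups compared, and 0 without the high-share libraries or with either covariate. With 1 animal left out they ranged from 1 to 4. They were 1 without T replicate 13 or T+WSD replicate 8, and 4 without C replicate 1, T replicate 14 or T+WSD replicate 12. The interaction called 1 with DESeq2 and 1 with upper-quartile factors, PDE7A in both, and 0 to 2 with 1 animal left out, at 1 without C replicate 4 and 2 without WSD replicate 21. *WSD* against *C* called 1, AKAP12, with DESeq2 and 0 to 0 with 1 animal left out, and *T* against *C* called 0 under every alternative run. Other scalings moved the log2 levels of a group by at most 0.031 on average. With upper-quartile factors the shift was 0.031 in *T* + *WSD* and -0.027 in *WSD*, so a contrast of these groups moved by more than either. The causes were not tested, beyond the smaller number of animals where some were left out. No paired analysis was possible because each animal has its own replicate number and the groups share none.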
